A study of Mus musculus with 4 samples.

Results

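The distal miR-379/miR-410 cluster is a run of microRNA (miRNA) hairpins on mouse chromosome 12, in the imprinted Dlk1-Dio3 region. Its members were chosen by name: 38 mature miRNAs from 34 hairpins, with both arms of 4 hairpins included, out of 750 miRNA assays in the data. All 38 names had an assay, and star forms, the arms named as passenger strands, were not members. The hairpins span 34.7 kb, chr12:109709060-109743795 in the RefSeq annotation of GRCm38.p6, and 9 of them lie inside the annotated noncoding gene Mirg (chr12:109734981-109749458), while the others lie upstream of it. The data are quantitative PCR readings of lung RNA from 4 groups of mice: neonates collected at day 3 after 72 h in room air, neonates collected at day 3 after 72 h in 95% oxygen (hyperoxia), adults of 2 months after 72 h in room air, and adults of 2 months after 72 h in 95% oxygen. Hyperoxia is used in newborn rodents to model oxygen injury of the immature lung. The labels name no strain, genotype or sex and do not say whether a library holds 1 mouse or a pool, and dams moved between the atmospheres every day. Each group had 1 library, taken from the right lung after the pulmonary artery was flushed, so no spread between animals stands behind a difference between libraries.

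Genes of the Dlk1-Dio3 region are imprinted, meaning that the copy from only one parent is active. The protein-coding genes Dlk1, Rtl1 and Dio3 are expressed from the paternal chromosome, and the noncoding transcripts that carry the miRNAs are expressed from the maternal chromosome. The distal cluster is cut from such long transcripts, and its miRNAs are known from embryo, placenta and brain and fall in most tissues after birth. Mice that lack the cluster adapt poorly to fasting and to the change of fuel at birth. A miRNA finds its targets mainly through its seed, bases 2 to 8 from the 5′ end, and hairpins give 2 candidate strands, named 5p and 3p.

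Mature sequences of 36 members were taken from RefSeq (build GRCm38.p6); those of miR-376c and miR-487b are not printed here. The 36 sequences carried 36 distinct seeds. The names in the data come from an older miRBase release that gives many members no arm, and the arm printed for those members follows the later naming and is not in the data files. The sequences below are those on which the results turn, written 5′ to 3′ with the seed in capitals. The first set holds 3 pairs of near-identical members, chosen because an assay for one could read the other.
mmu-miR-376b: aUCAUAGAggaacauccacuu
mmu-miR-376a: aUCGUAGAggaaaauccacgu
mmu-miR-300: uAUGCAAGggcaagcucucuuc
mmu-miR-381: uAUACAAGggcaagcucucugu
mmu-miR-543: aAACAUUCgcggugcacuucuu
mmu-miR-495: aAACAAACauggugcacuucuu
Counted from the 5′ end, miR-376b and miR-376a differed by A4G, C13A and U20G, miR-300 and miR-381 by G4A, U21G and C22U, and miR-543 and miR-495 by U6A, U7A, G9A and C10U. Each pair therefore differed within the seed. The second set holds the members with the largest room air age differences among those read in both room air libraries, and the member that, after miR-381, had the smallest there.
mmu-miR-412: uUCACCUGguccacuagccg
mmu-miR-323-3p: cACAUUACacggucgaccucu
mmu-miR-494: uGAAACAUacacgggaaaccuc
The third set holds the arms of 3 hairpins that were measured on both sides.
mmu-miR-380-5p: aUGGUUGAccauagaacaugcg
mmu-miR-380-3p: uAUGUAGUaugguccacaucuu
mmu-miR-409-5p: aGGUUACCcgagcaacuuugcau
mmu-miR-409-3p: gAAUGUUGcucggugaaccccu
mmu-miR-369-5p: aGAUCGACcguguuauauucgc
mmu-miR-369-3p: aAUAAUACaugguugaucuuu

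The assay reports a threshold cycle (Ct), the cycle at which fluorescence crosses a threshold, and a lower Ct means more RNA. The level used here is the Ct of the small nucleolar RNA snoRNA202 minus the Ct of the miRNA, a log2 scale on which 1 unit is 2-fold at perfect amplification. Assays differ in efficiency, so the level of a member is compared between libraries and the order of levels among members is only a description. A member counted as detected at a Ct of 35 or below, and 40 marks no crossing. Of the 750 assays, 477, 507, 463 and 468 were detected in neonatal lung (room air, then hyperoxia) and adult lung (room air, then hyperoxia), the order in which sets of 4 values are given below. Repeat measurements existed for 4 control RNAs that sit on both cards of a library, and their gaps between cards gave a technical SD of 0.648 log2 for a difference of age in room air, 0.949 for age in hyperoxia, 0.256 for oxygen in neonates and 0.331 for oxygen in adults. The adult room air library stood apart in row L of its first card, where 23 wells followed the average of the remaining libraries at r = 0.286, while r was at least 0.769 in the remaining rows of all libraries. Members miR-539, miR-543 and miR-544 sit in that row, and their adult room air values were disregarded.

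Neonatal lung expressed most of the cluster. Of the 38 members, 30 were detected in neonates kept in room air and 31 in neonates kept in oxygen, against 21 and 23 in the adults. The 21 leaves out miR-539, miR-543 and miR-544, whose readings there were disregarded and which were detected in every other library. Of all 750 assays, 477, 507, 463 and 468 were detected, with row L left out in the same way. A Ct of 25 or below was reached by 17, 17, 6 and 7 members in that order of libraries, and by 267, 291, 263 and 261 of all 750 assays, row L included. Members miR-299, miR-758, miR-679, miR-666-3p, miR-300, miR-453 and miR-377 were not detected in any library, and 0 members were detected in adult lung alone. The matching shares over all 750 assays were not counted, so both statements only describe the members. miR-154, which is known to be raised in fibrotic human lung, crossed the limit only in neonatal hyperoxia, at a Ct of 33.7 (level -20.15 log2) against 37.5 in neonatal room air and 40 in both adult libraries.

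**Figure D1:**
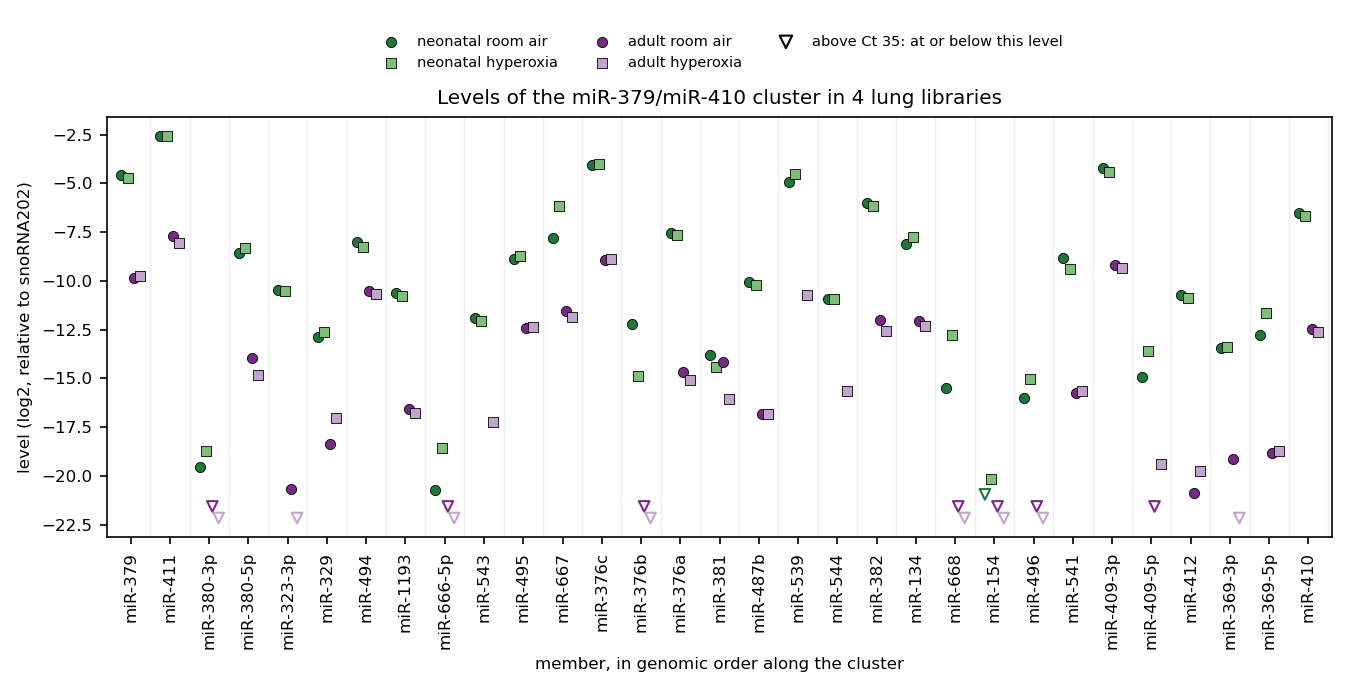
Level of each detected member (y axis, log2 relative to snoRNA202) in the 4 libraries, with members in genomic order on the x axis. Open triangles mark a library in which the member was above a Ct of 35 and give the highest level it can have there. For members with a value in both age groups, green neonatal points lie above purple adult points, except at miR-381, whose adult room air point (-14.18) lies between its neonatal points (-13.78 and -14.42).

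The plot of levels along the cluster shows neonatal values above adult values from end to end, apart from miR-381. The miRNA of the first hairpin, mmu-miR-379, was at -4.56 and -4.72 log2 in neonatal lung and at -9.87 and -9.74 in adult lung, room air first. That of the last hairpin 34.66 kb away, mmu-miR-410, was at -6.50, -6.66, -12.45 and -12.60 in the same order of libraries. At both ends the neonatal libraries lay together, the adult libraries lay together, and the ages did not overlap. mmu-miR-411 had the highest level in every library (from -2.56 in neonatal hyperoxia to -8.04 in adult hyperoxia), followed by miR-376c and miR-409-3p. miR-539 was at -4.92 and -4.52 in neonatal room air and hyperoxia and at -10.74 in adult hyperoxia.

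In room air the adult library held less of nearly every member. Of 21 members detected in both room air libraries, 20 had an adult level 2-fold or more below the neonatal one and 0 were at least 2-fold higher; over all 431 assays compared, 44.5% were at least 2-fold lower and 15.3% at least 2-fold higher. The median of the members was -5.45 log2, or 43.7-fold lower, against -0.73 over all assays. The middle of the list was narrow, from -6.02 at the lower quartile to -4.85 at the upper, and 13 of the 21 members lay between -7 and -4, as did 41 of all 431 assays. The scale matters for the background: with each library centred on its mean, 108 of 431 assays were lower and 156 higher, with U6 as the reference 81 and 244, with cards centred on their medians 109 and 172, and with snoRNA135 and snoRNA202 155 and 99, against 192 and 66 on the snoRNA202 scale. The median of all assays ran from -0.73 to 1.41 log2 over the 6 scales, and the members' median minus that of all assays from -5.20 to -4.21. In bulk lung RNA, fewer cells that express a miRNA and less of it per cell cannot be told apart.

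The hyperoxia pair, which shares no library with the room air pair, gave similar values. All 23 members detected in both libraries lay 2-fold or more below the neonate in the adult; the share over all 450 assays compared was 49.3%, with 10.9% at least 2-fold higher (222 lower and 49 higher; 120 and 154 with mean centring, 114 and 223 with U6, 123 and 164 with centred cards, 178 and 78 with snoRNA135 and snoRNA202). The median was -5.70 log2 (52.0-fold lower) against -0.98 over all assays. In 19 members both pairs could be read, and 18 of them were at least 2-fold lower in both, against 39.1% of the 422 assays read in both pairs. Over those 19 members the room air and hyperoxia differences gave r = 0.92 (Spearman 0.88), a description only, since members share their libraries and cards. The median gap between the pairs was 0.36 log2 for members and 0.57 for all 422 assays.

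**Figure D2:**
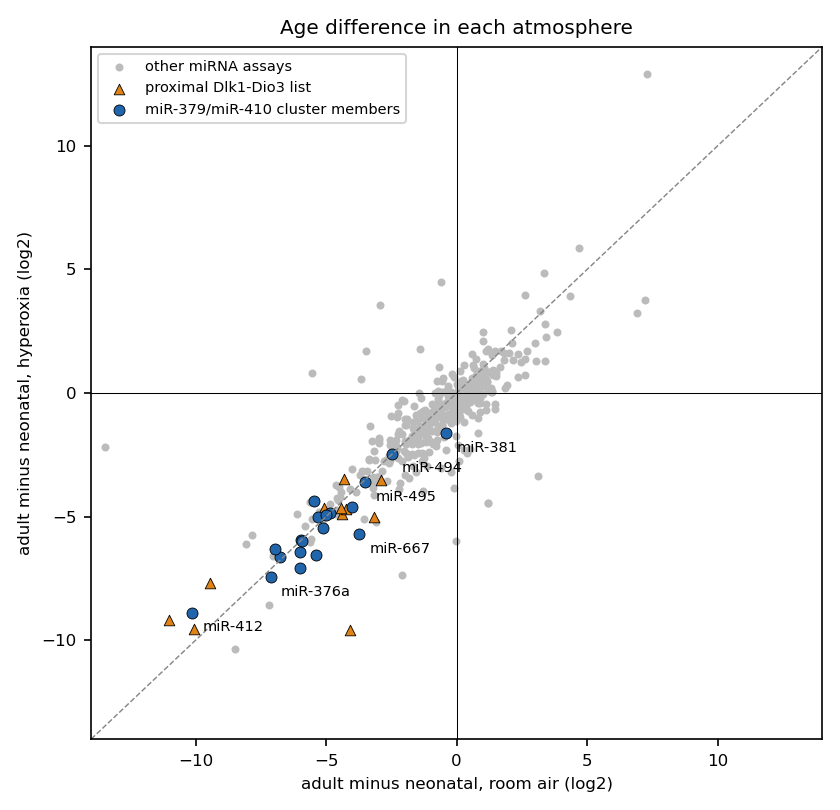
Adult minus neonatal difference in room air (x axis, log2) and in hyperoxia (y axis, log2) for the assays detected in all 4 libraries. Blue circles are members, orange triangles the proximal Dlk1-Dio3 list, grey points other assays and the dashed line equal differences. Members lie in the lower left, from miR-381 (-0.40 and -1.62) to miR-412 (-10.14 and -8.89), most of them close to the line.

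An additive model of age and oxygen (limma, Benjamini-Hochberg adjustment over the 422 assays detected in all 4 libraries) was the test that 4 libraries allow, with 1 residual degree of freedom per assay. Of 19 members fitted, 18 fell with age (adjusted p from 0.012 to 0.033), and 0 rose; of all 422 assays 30.6% fell and 4.74% rose. The median fitted difference of the members was -5.30 log2 against -0.88 over all assays. Standard errors of the members ran from 0.24 to 0.65 log2. Apart from that of miR-667, they lay below the technical SD of a single age pair, 0.648 in room air and 0.949 in hyperoxia. They may therefore understate the technical error. The model takes oxygen to act alike at both ages, and no label ties the libraries to separate litters or experiments. Its p-values rest on the gap between the room air and hyperoxia age differences, pooled with that of the other assays. Part of this gap may be technical, and it does not measure a spread between animals.

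Among members read in both room air libraries, miR-412 and miR-323-3p had the largest age differences in room air; members with only a bound, such as miR-376b and miR-668, cannot be ranked against them. miR-412 was at -10.73 and -10.86 log2 in neonatal lung and at -20.86 and -19.75 in adult lung, each in room air and then hyperoxia. In the model it fell by 9.51 ± 0.45 log2 (SE; limma, adjusted p = 0.012). Its adult readings were late, with Ct values of 34.3 and 33.5, close to the limit of detection. miR-323-3p was at -10.49 and -10.53 in the neonatal libraries and at -20.68 in adult room air, a difference of -10.19. In adult hyperoxia its Ct of 35.006 lay just above the limit, which bounds the difference there at -11.63 or lower and kept the member out of the model. Both members were read at middle cycles in neonates, so the adult side is the less certain one.

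The miR-376 group, whose transcripts are classic substrates of RNA editing by ADAR enzymes, sits on neighbouring hairpins, and its fitted falls differed in size. miR-376a was at -7.55, -7.65, -14.68 and -15.09 log2 in the order given above, and fell by 7.28 ± 0.26 (SE; limma, adjusted p = 0.012). miR-376c was at -4.07, -4.02, -8.92 and -8.87, and fell by 4.85 ± 0.24 (limma, adjusted p = 0.012). The neonatal and adult values of each did not overlap, and the fall of miR-376a was the larger in both atmospheres. miR-376b was detected only in neonates, at -12.23 and -14.85; its adult Ct values of 35.035 and 39.9 bound the age difference at -9.34 or lower in room air and -7.31 or lower in hyperoxia.

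Between these extremes lay members with falls near the median of the list. miR-134, a regulator of dendritic spine size in neurons, was at -8.09, -7.73, -12.08 and -12.32 log2 in the order given above and fell by 4.29 ± 0.31 (SE). miR-382 was at -6.02, -6.16, -12.02 and -12.57 and fell by 6.21 ± 0.27. For both, the adult libraries lay close together and far below the neonatal ones. miR-487b was at -10.07, -10.20, -16.82 and -16.84 and fell by 6.69 ± 0.25. miR-541 was at -8.82, -9.37, -15.77 and -15.66 and fell by 6.62 ± 0.32. miR-1193 was at -10.64, -10.76, -16.57 and -16.75 and fell by 5.96 ± 0.25. At both ages these 3 members lay close together in room air and oxygen. miR-329 was at -12.89, -12.64, -18.34 and -17.01 and fell by 4.91 ± 0.41. miR-667 was at -7.79, -6.15, -11.52 and -11.86 and fell by 4.72 ± 0.65, the widest standard error among the members. miR-544 was at -10.93 and -10.94 in neonates and -15.63 in adult hyperoxia. The adjusted p-values of the members in this paragraph were from 0.012 to 0.033 (limma), apart from miR-544, which was not fitted. Of the 7 members on the second card, the 3 read in both room air libraries, miR-541, miR-1193 and miR-412, had a room air median of -6.95, and the 18 so read on the first card -5.35, with medians over all assays of -1.20 and -0.40 on those cards. The second card of adult room air was set against the first card's snoRNA202, which enters this contrast. In hyperoxia, with own references, the medians were -6.29 and -5.33 for members and -1.04 and -0.95 over all assays.

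Smaller fitted falls were seen in miR-495 and miR-494. miR-495 was at -8.89 and -8.74 log2 in neonates and at -12.39 and -12.35 in adults, and fell by 3.56 ± 0.25 (SE; limma, adjusted p = 0.0135), although with U6 as the reference it was at -0.75 and not called. miR-494 was at -8.02 and -8.24 in neonates and at -10.51 and -10.68 in adults. It fell by 2.47 ± 0.24 (limma, adjusted p = 0.020) on the snoRNA202 scale, lost its call with cards centred on their medians (-1.01) and was at 0.34 with U6. The near-identical partner of miR-495, miR-543, was at -11.88 and -12.05 in neonates and -17.24 in adult hyperoxia, a difference of -5.19 against -3.61 for miR-495 in the same pair.

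miR-381 was the exception in the cluster. It was at -13.78, -14.42, -14.18 and -16.04 log2 in the same order of libraries, so that in contrast to all other members read in both room air libraries its ages overlapped. The fitted difference was -1.01 ± 0.45 (SE; limma, adjusted p = 0.181), and it ranged up to 1.80 with U6, where it was called higher. The hairpins that flank it among the detected members, miR-376a at 3.04 kb before and miR-487b at 0.51 kb after, had fitted differences of -7.28 and -6.69. An assay named for rat miR-381 was not called either (limma -0.93 ± 0.33 SE, adjusted p = 0.125). Its values, -10.98 and -10.80 in neonates and -11.56 and -12.08 in adults, did not overlap between the ages. Its near-identical partner miR-300 was not detected in any library.

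Of the 27 members detected in both neonatal libraries outside row L, 5 were above the limit in both adult libraries, namely miR-380-3p, miR-666-5p, miR-376b, miR-668 and miR-496; among all 454 such assays the share was 5.51%. miR-668 was at -15.47 and -12.78 log2 in neonates, which bounds the age difference at -6.09 or lower in room air and -9.38 or lower in hyperoxia. miR-496 was at -16.01 and -15.04, with bounds of -5.55 and -7.12. miR-380-3p (-19.55 and -18.73) and miR-666-5p (-20.72 and -18.56) were late already in neonates (Ct from 32.1 to 34.8), so their bounds, from -3.60 to -0.85, say little about the size of a difference.

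Arms of the same hairpin went the same way where both could be read. miR-369-5p was at -12.78, -11.67, -18.80 and -18.74 log2 in the 4 libraries, and miR-369-3p, which is known to act on an AU-rich element of tumour necrosis factor mRNA, at -13.44, -13.39, -19.12 and above the limit. The gap of 5p over 3p was 0.66 in neonatal room air, 1.72 in neonatal hyperoxia and 0.32 in adult room air, so the arms moved with age by similar amounts in room air (-6.02 and -5.68). In hyperoxia the 5p arm was at -7.07, and the 3p arm was bounded at -8.77 or lower. miR-409-3p was at -4.19, -4.43, -9.18 and -9.35. Its partner miR-409-5p, at -14.93, -13.58, above the limit and -19.41, differed from it in level by -10.74 in neonatal room air, -9.15 in neonatal hyperoxia and -10.06 in adult hyperoxia, on assays of unknown relative efficiency. In hyperoxia the age differences of those arms were -5.83 (5p) and -4.92 (3p). In room air miR-409-3p was at -4.99, and miR-409-5p was bounded at -6.64 or lower. miR-380-5p, at -8.55, -8.29, -13.93 and -14.84, read 10.44 above miR-380-3p in neonatal hyperoxia, and the 3p arm was above the limit in adults.

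Assays that were not members, for star forms, for rat-named sequences and for other miRNAs of the distal hairpins, gave a second reading of the same locus. Members and other assays are named here by the target identifier in the files; 15 members carry a human name in the column of assay names, and of 14 assays with a rat identifier, 6 carry a mouse or human name there, so the species of the assayed sequence was not settled for those. Of 26 such assays, 17 and 18 were detected in neonatal room air and hyperoxia and 10 and 9 in adult room air and hyperoxia. Of the 10 read in both room air libraries, 9 lay 2-fold or more below the neonate in the adult, with a median of -5.55 log2. All 9 read in both hyperoxia libraries were lower, with a median of -4.42. The shares over all assays compared were 44.5% in room air and 49.3% in hyperoxia. In the model 8 of 9 fell, against 30.6% of all 422 assays, and rat-named miR-381 was the assay not called. miR-411*, the passenger strand of miR-411, fell by 7.89 ± 0.50 (SE), while miR-411 itself, at -2.58, -2.56, -7.70 and -8.04, fell by 5.30 ± 0.27. The star forms miR-376b* (-3.31), miR-154* (-3.54) and miR-485* (-3.03) fell too. Each was detected in all 4 libraries, whereas miR-154 crossed the limit only in neonatal hyperoxia and miR-485 in no library. miR-376b* was at -6.96 and -7.16 in neonates, well above the -12.23 and -14.85 read by the miR-376b assay.

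**Figure D3:**
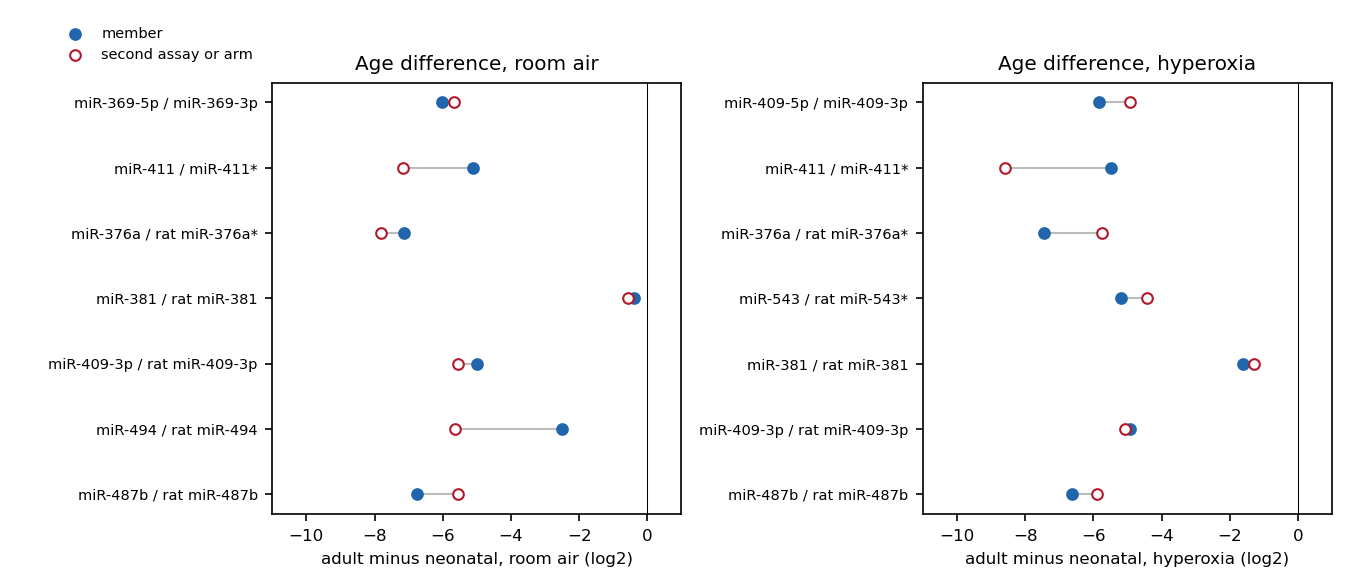
Adult minus neonatal difference (x axis, log2) of members (filled) and of a second assay (open), for room air on the left and hyperoxia on the right. The second assay is the opposite arm or an assay with a rat identifier of the same hairpin. Each line joins the readings of 1 pair, and all lie below 0, with the widest room air gap at miR-494 (-2.49 and -5.63) and the widest hyperoxia gap at miR-411 and its passenger strand (-5.48 and -8.59).

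As the plot of second assays shows, some pairs differed in size. The rat-named assay of miR-409-3p (-5.54 log2 in room air and -5.08 in hyperoxia) came close to the member (-4.99 and -4.92). The assay with the rat identifier of miR-487b was at -5.56 and -5.89, close to the -6.75 and -6.63 of the member. Its assay name is that of mouse miR-487b, and the member's is that of human miR-487b. The assay with the rat identifier of miR-494 was at -5.63 in room air, against -2.49 for the member. In adult hyperoxia it was above the limit, with a bound of -6.56 against -2.45 for the member. By assay name it is mouse miR-494 and the member is human miR-494. Which of them reads the mouse sequence was not settled. The rat-named assay of miR-409-5p was at -7.91 and -8.44 in neonates and above the limit in both adult libraries. Its bounds were -13.66 and -13.72, while the member was detected in adult hyperoxia. An assay with the rat identifier of miR-758 and a human assay name was detected in neonates (Ct 28.1 and 27.4) and not in adults. The member miR-758, which also has a mouse assay name, had no crossing at any age.

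Position along the cluster showed no steep gradient. The 15 members upstream of the Mirg annotation had a room air median of -5.31 log2 (-10.19 to -0.40), and the 6 inside it -5.98 (-10.14 to -4.99). In hyperoxia these medians were -5.19 for 17 members and -6.12 for 6. Across members the age difference and the order of hairpins gave a Spearman value of -0.27 in room air (21 members) and -0.34 in hyperoxia (23 members). Level in the neonate and the age difference gave 0.20 and -0.04. The neonatal reading enters both of these quantities, and members above the limit in adults are missing. The values therefore cannot settle whether level and age difference are related. All values in this paragraph describe members that share libraries and cards.

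The proximal Dlk1-Dio3 miRNAs, which lie nearer to Meg3 and partly antisense to Rtl1, were read as the neighbouring group of the same imprinted region. Of 17 listed assays, 11 were read in both pairs, and all 11 lay 2-fold or more below the neonate in the adult in room air (median -4.40 log2) and in hyperoxia (median -4.90). Over all assays compared, 44.5% were at least 2-fold lower in room air and 49.3% in hyperoxia, and 30.6% of those fitted fell in the model. Of the 11 listed assays fitted, 10 fell in the model, and miR-673-5p did not pass (-6.83 ± 1.69 SE, limma adjusted p = 0.0728). miR-127, which is perfectly complementary to Rtl1, fell by 3.89 ± 0.35, and miR-431 fell by 9.81 ± 0.29. The spans of both groups overlapped, -10.19 to -0.40 in room air for the distal members and -11.01 to -2.89 for the proximal list, and a difference between the groups was not tested.

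Lists of tissue miRNAs were read beside the cluster. In the model, of the mesenchyme list miR-214 fell by 3.00 ± 0.26 log2 (SE) and miR-199a-5p fell by 2.28 ± 0.26, 2 of 3 fitted, and miR-199b had no assay of that name. The log2 summed level of that list was -2.20 and -1.98 in neonatal room air and hyperoxia and -3.40 and -3.82 in adult room air and hyperoxia, while that of the cluster was -1.28, -1.25, -6.42 and -6.51. The cluster sums cover unlike sets, since 8, 7, 17 and 15 of the 38 members had no usable reading. In adult room air alone these include miR-539, miR-543 and miR-544. The part of mesenchymal cells in the cluster's age difference was not tested. In the brain list 1 of 3 fell (miR-137, -2.41) and in the striated muscle list 1 of 5 (miR-206, -3.02). The remaining brain assay, miR-124, was not fitted: it was above the limit in neonatal room air, with an age difference of at least 4.56 there and of 2.79 in hyperoxia, higher in the adult in both. The endothelium (2 fitted), epithelium (5), erythroid (3), leukocyte (4) and smooth muscle (2) lists had 0 calls; at an unadjusted p under 0.05 they had 0, 1, 2, 0 and 1 (limma). Room air medians were 0.14 for brain, 0.10 for striated muscle, 0.29 for endothelium, 0.50 for epithelium, -1.03 for erythroid, 0.98 for leukocyte, -2.42 for mesenchyme and 0.96 for smooth muscle. In hyperoxia they were -0.09 for brain, -1.17 for striated muscle (4 of 5 at least 2-fold lower), -0.14 for endothelium, -0.90 for epithelium (2 of 5 lower), -0.79 for erythroid, 0.25 for leukocyte, -2.13 for mesenchyme and 0.56 for smooth muscle. The brain list's summed level, between -11.17 and -10.74 in all 4 libraries, spanned less than that of the cluster.

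In neonatal lung most members were at similar levels in hyperoxia and in room air. Of 30 members detected in both neonatal libraries, 20 differed by less than 0.5 log2, as did 263 of all 469 assays. The median was 0.00, against 0.13 over all assays, and the median size of the difference was 0.22 against 0.41. At least 2-fold higher were 5 members, and 1 was at least 2-fold lower; over all assays 13.6% were higher and 8.53% lower. miR-376c (-4.07 and -4.02), miR-411 (-2.58 and -2.56) and miR-544 (-10.93 and -10.94), all read at early to middle cycles, were nearly equal in room air and oxygen.

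**Figure D4:**
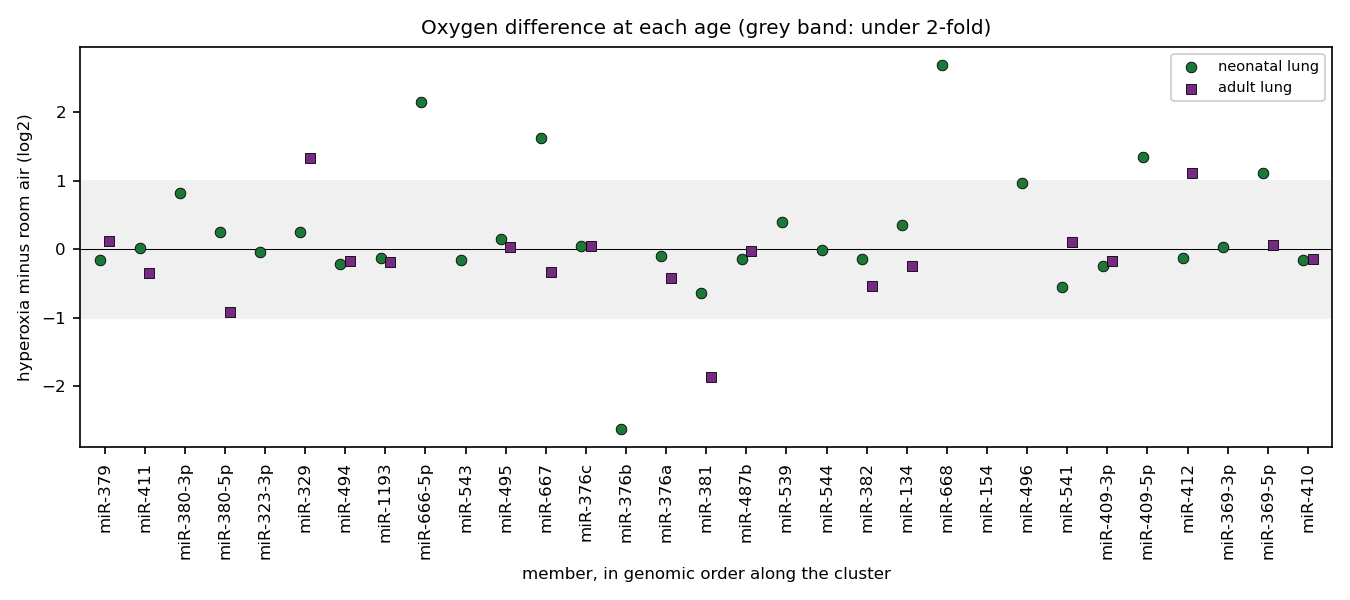
Hyperoxia minus room air difference (y axis, log2) of each detected member in neonatal lung (green circles) and adult lung (purple squares), in genomic order. The grey band holds differences under 2-fold: 24 of 30 neonatal and 16 of 19 adult points lie inside it, and miR-668 (2.69) and miR-376b (-2.62) lie farthest from 0.

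The members outside the 2-fold band in neonates each came from a different hairpin. miR-668 was at -15.47 log2 in room air and -12.78 in hyperoxia, a difference of 2.69, and miR-666-5p at -20.72 and -18.56 (2.15), at late cycles. miR-667 was at -7.79 and -6.15, a difference of 1.63, and is the member of this group with the earliest readings (Ct 21.8 and 19.7). miR-409-5p was 1.35 higher in hyperoxia and miR-369-5p 1.11. The opposite arms of those hairpins did not share the difference: miR-409-3p was at -0.24 and miR-369-3p at 0.04, and the rat-named miR-409-5p assay was at -0.53. miR-376b differed by -2.62 in hyperoxia, whereas its star form miR-376b* was at -0.20 and miR-376a at -0.09. With 1 library per group these differences cannot be set against a spread between animals.

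In adult lung 19 members were detected in both libraries. The median oxygen difference was -0.17 log2 against -0.14 over all 444 assays, and 14 of the 19 differed by less than 0.5 log2, as did 301 of 444. At least 2-fold higher in hyperoxia were miR-329 (-18.34 in room air and -17.01 in hyperoxia, a difference of 1.33) and miR-412 (1.12), both with adult Ct values above 29, and miR-381 was 1.86 lower; over all assays 5.18% were higher and 7.21% lower. The member miR-412 was at 0.89 where the second card of adult room air was set against its own snoRNA202, and rat-named miR-381 was at -0.52. Above the limit in 1 adult library only were miR-409-5p, at least 2.16 higher in hyperoxia, miR-369-3p, at least 3.04 lower there, and miR-323-3p, at least 1.48 lower there; the 5p arm of miR-369 was at 0.06.

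In the additive model 0 of the 19 members were called for oxygen (limma; lowest unadjusted p 0.077, 0 members under 0.05), and over all 422 assays 0.0% rose and 0.0% fell, with 13 at an unadjusted p under 0.05. Of the 19 members read in both pairs, 0 differed by 2-fold or more in opposite directions at the ages. The share over all assays was not counted, so the 0 is a description only. Of the neonatal members outside the 2-fold band, only miR-667 and miR-369-5p could be read in adults, at -0.33 and 0.06.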

How the data were processed

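Lung RNA of 4 mouse groups, 1 library each, was reverse transcribed with Megaplex primer pools, preamplified and read on 2 TaqMan cards of 384 wells, per the labels' protocols. The authors deposited the threshold cycle (Ct) of every well, a log2 unit in which more RNA gives a lower value, and the delta Ct against snoRNA202, also log2. The sources used here do not name the software, threshold or baseline. The deposited delta Ct was kept, with its sign turned. On the second card of adult room air all 384 wells refer to the first card's snoRNA202 (Ct 13.434, not 13.659). Of 768 wells, 18 held control RNAs.

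Samples were grouped by their labels. Differences were taken where both libraries had a Ct of 35 or below, and counted at 1 log2 unit, which is 2-fold. Members above 35 in 1 library have a bound against 35. limma 3.58.1 (R 4.3.3) fitted age plus oxygen to 422 assays; p-values were adjusted by Benjamini-Hochberg and called under 0.05, and the script was tested on simulated data. Row L of the first card (24 wells) was left out in adult room air. No sequencing depth applies; late cycles carry more error. Alternatives were 5 other normalizations, Ct limits of 32 and 38, row L kept, the limit in place of missing values, and robust eBayes with a trend. Every member detected in a library is named with its levels; outside the members, other assays of the same hairpins, the proximal list and the marker lists are named. Members and lists were chosen with earlier results of these data known.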

Additional observations from a re-analysis of the deposited data

How the results depend on the processing

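No paired analysis was possible because each group had 1 library and the labels carry no replicate numbers, and for the same reason no library could be left out. With U6 as the reference the members' median age difference was -2.80 log2 in room air and -2.73 in hyperoxia. With each card centred on its median it was -4.20 and -4.04, and with mean centring it was -4.46 in hyperoxia. Of the 19 members fitted, 16 were called lower with age under all 6 normalizations (limma). Over all 422 assays this count was not taken. It can be at most 75, the number that fell with U6. miR-381 was at 1.80 with U6 (adjusted p = 0.0229, called higher) and at 0.45 with centred cards (0.328). miR-494 was at 0.34 with U6 (0.395) and at -1.01 with centred cards (0.0599), and miR-495 at -0.75 with U6 (0.106). Over all assays, 129 fell and 20 rose with age in the model; this was 79 and 116 with mean centring, 75 and 200 with U6, 81 and 136 with centred cards, and 125 and 58 with snoRNA135 and snoRNA202. For oxygen in adults, the median of the members was 0.42 with mean centring. The count of members at least 2-fold lower in adult hyperoxia was 3 with a Ct limit of 38 or with the limit in place of missing values, and 2 with row L kept. Over all assays it was 43 of 460, 43 of 474 and 36 of 448 under these settings. The count of members at least 2-fold higher in adult hyperoxia was 1 under each of the 5 other normalizations and with a Ct limit of 32. Over all assays it ran from 17 to 27 of 444 under those normalizations and was 13 of 416 with that limit. The cause of these changes was not tested. Values near a Ct of 35 are limited by late amplification.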

Other observations

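In the disregarded row of the adult room air library, miR-539 and miR-544 were listed at a Ct of 40, and miR-543 at 25.7. In adult hyperoxia miR-544 had a Ct of 28.5. An assay on the second card with the identifier of rat miR-543* and the assay name of mouse miR-543 had a Ct of 31.3 in adult room air (level -17.87 log2), and which sequence it reads was not settled.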
